A study of Mus musculus with 16 samples.

Results

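The genes described here build and run the vesicle shuttle between the endoplasmic reticulum (ER) and the Golgi. They were taken by symbol from a fixed list of 37 COPII, COPI, cargo receptor, KDEL receptor, ARF and SNARE genes, and all 37 were among the 25105 genes of the deposited expression table. The rule picks genes by name and uses no expression value. The list was drawn up with earlier results of these data known, though, so shares of all genes given beside it are descriptive. The same holds for the gene pairs and further lists used below. The data are bulk poly(A) RNA-seq of dispersed pancreatic islet cells from Grp78 flox/flox mice, in which loxP sites flank part of Hspa5, the gene for the ER chaperone GRP78 (BiP). Cultures received an adenovirus carrying LacZ (Ad-LacZ, control) or Cre recombinase (Ad-Cre), with DMSO vehicle or the pan JNK inhibitor JNK-IN-8 from the start, in 15 mM glucose for 72 h. Each virus was given with and without inhibitor, and each of the 4 resulting groups had 1 library from each of 4 islet preparations, F1 and F2 from females and M1 and M2 from males, giving 16 libraries. The sample names carry a pair of animal numbers per preparation, so a preparation may pool animals. Cells in all 4 groups carried the floxed alleles and every culture received a virus, and that virus can reach every islet cell type, not β cells alone.

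COPII is the coat that buds vesicles from ER exit sites toward the Golgi. The GTPase SAR1 recruits SEC23 and SEC24, which pick the cargo, and SEC13 and SEC31 form the outer cage. COPI is the coat of the return route, recruited by ARF GTPases, and KDEL receptors ride it to bring escaped ER chaperones back. In β cells proinsulin is the main cargo of the outward route.

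Expression is given as RPKM, read counts normalized to gene length and library size, so levels can be compared between genes. Depth recovered from the RPKM steps was 7.72 M to 25.5 M reads per library, the lowest being Ad-Cre + JNK inhibitor F2. The column name of that library also carries another leading code and lane tag than the rest. No fit left out that library alone. Across all genes tested, libraries correlated with the others of their group at a mean r of 0.936 to 0.977. Hspa5, the targeted gene, went against the label: it was at 478, 483, 395 and 396 RPKM in the Ad-LacZ libraries of F1, M1, M2 and F2 and at 1107, 1114, 1237 and 1598 RPKM in those labelled Ad-Cre. Its log2 fold change was 1.51 (SE 0.184, limma adjusted p = 0.00225). A gene-level value does not separate the floxed exons from the rest of the transcript, so it does not check the deletion, and every direction below is between libraries labelled Ad-Cre and Ad-LacZ. The islet hormone and β cell markers were abundant in every library, and the 7 acinar markers together reached at most 10.9 RPKM. Summed RPKM of 8 stellate and fibroblast markers differed far more between preparations, at 50.3 and 79.4 in F1 and M1 labelled Ad-Cre and 1251 and 378 in M2 and F2, against 53.7, 82.4, 273 and 150 in Ad-LacZ. In bulk samples, fewer cells of a type and less RNA per cell cannot be told apart.

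In the Ad-LacZ control, the 37 genes were well expressed but spread widely. SURF4, a broad cargo receptor, led with 250 ± 36.4 RPKM (SD, n = 4), followed by the GTPase gene Arf1 at 215 ± 20.7 RPKM and the p24 cargo receptor gene Tmed2 at 141 ± 5.12 RPKM. Surf4 and Arf1 did not differ beyond their spread, and neither did Tmed3 (123 ± 10.4), Kdelr1 (113 ± 13.8), Kdelr2 (112 ± 6.93) and Copb2 (106 ± 11.3 RPKM). The lowest member was Sec24a at 7.63 ± 2.58 RPKM, which still lay at the 77.4th percentile of all genes, close to Sec16b at 8.78 ± 0.95 RPKM and Copz2 at 10.2 ± 1.26 RPKM. Within families the levels were unequal. Kdelr3 had 14.7 ± 2.62 RPKM beside 113 ± 13.8 RPKM for Kdelr1, and Copg2 had 11.4 ± 2.04 RPKM beside 43.6 ± 2.08 RPKM for Copg1. All 37 genes passed the low-value filter (above 1 RPKM in at least 4 libraries) in every fit.

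Most of the 37 genes stood higher in libraries labelled Ad-Cre than in Ad-LacZ libraries. Summed over the 37 genes, the level was 2314, 2361, 2181 and 2108 RPKM in Ad-LacZ and 3035, 2919, 2658 and 3066 RPKM in libraries labelled Ad-Cre, or 0.702% to 0.747% and 0.835% to 0.982% of all RPKM, so the groups did not overlap. The log2 fold change was above 0 for 31 of 37 members (32 as deposited, 28 after quantile normalization), against 48.8% of all 11590 genes tested, and the median was 0.24 for members and -0.01 for all genes. After quantile normalization the members' median was 0.16, and medians by role ran from 0.05 (ARF genes) to 0.28 (KDEL receptors). The COPI coat then had 5 of 9 genes above 0, with a median of 0.06. In limma on log2(scaled RPKM + 1), 7 of 37 members were higher at an adjusted p under 0.05 (Sec24d, Copz2, Mcfd2, Kdelr2, Kdelr3, Tmed2 and Tmed9), where 7.29% of all genes were. None was lower, where 9.58% of all genes were, and 30 members did not pass. With preparation as a block, 17 members were higher (15.7% of all genes) and 1, Copg2, was lower (18.7% of all genes). At an unadjusted p under 0.05 with more than 1.5-fold change, 5 members were higher, where 5% of all genes were. These 5 were Kdelr3, Tmed9, Mcfd2, Tmed2 and Copz2.

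**Figure D1:**
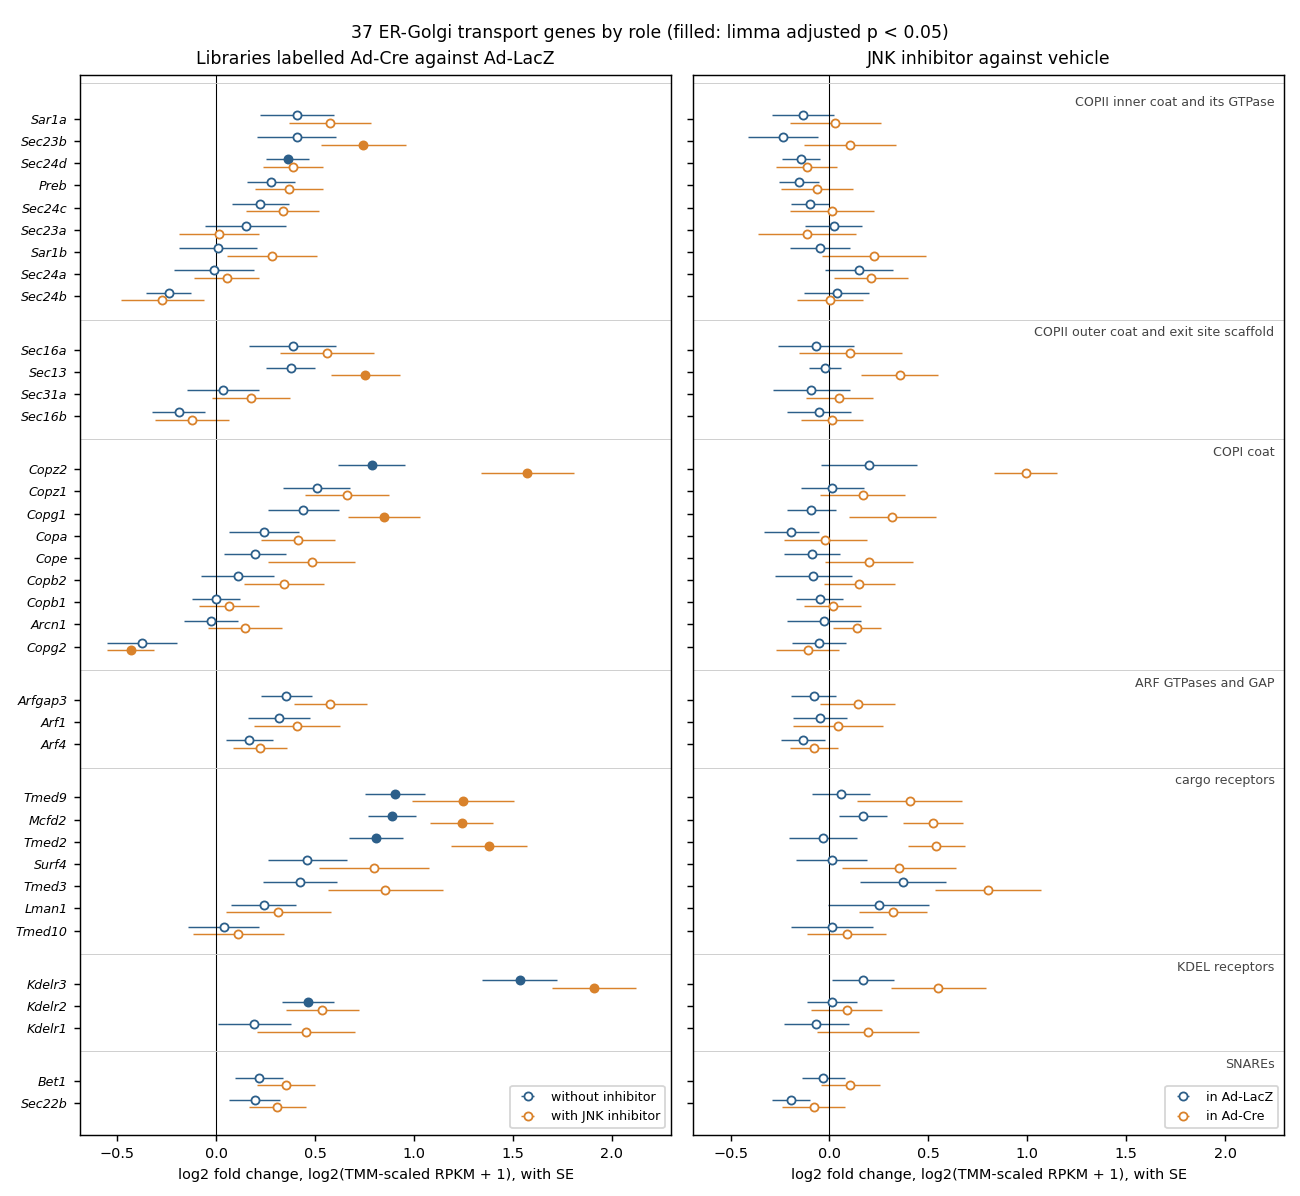
log2 fold change with its standard error (x axis, log2 of scaled RPKM + 1) for the 37 genes grouped by role (y axis), for libraries labelled Ad-Cre against Ad-LacZ without and with the JNK inhibitor (left) and for the inhibitor against vehicle in Ad-LacZ and in Ad-Cre (right). Filled points have a limma adjusted p under 0.05. On the left 31 and 34 of 37 points lie above 0, led by Kdelr3 at 1.53 and 1.91, and on the right no point is filled.

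The largest difference was in the KDEL receptors, which bind the KDEL tail of ER chaperones in the Golgi and return them. Kdelr3 (ENSMUSG00000010830, GRCm38 chr15:79516411-79527739, plus strand) had 11.1, 16.2, 17 and 14.5 RPKM in Ad-LacZ preparations F1, M1, M2 and F2, and 34.7, 31.1, 57.1 and 61.2 RPKM in those labelled Ad-Cre. The lowest Ad-Cre value lay well above the highest Ad-LacZ value, and M2 and F2 were higher than F1 and M1 in the Ad-Cre group. The log2 fold change was 1.53 (SE 0.188, limma adjusted p = 0.00227), a 2.89-fold difference. Kdelr2 rose by less, from 112 ± 6.93 to 155 ± 7.68 RPKM (SD, n = 4), with a log2 fold change of 0.46 (SE 0.133, limma adjusted p = 0.0442). Kdelr1 went from 113 ± 13.8 to 130 ± 14.9 RPKM and did not pass (log2 fold change 0.19, 95% interval -0.22 to 0.61).

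Of the cargo receptors 3 of 7 passed as higher without the block, and all 7 log2 fold changes were above 0 (6 of 7 after quantile normalization). Tmed9 (ENSMUSG00000058569, GRCm38 chr13:55573732-55597697, plus strand), a p24 protein of the early secretory pathway, had 41.2, 35.2, 38.3 and 28.3 RPKM in Ad-LacZ and 71.7, 60.3, 64.3 and 73.7 RPKM in libraries labelled Ad-Cre. The groups stood apart, and the log2 fold change was 0.90 (SE 0.151, limma adjusted p = 0.00755). Mcfd2 (ENSMUSG00000024150, GRCm38 chr17:87254443-87265935, minus strand) encodes the partner of the lectin LMAN1 in glycoprotein export. It had 46, 46.5, 48.4 and 44.3 RPKM in Ad-LacZ and 83.1, 68.3, 95.8 and 105 RPKM in libraries labelled Ad-Cre. The control values were tightly grouped and every Ad-Cre value lay above them, with a log2 fold change of 0.89 (SE 0.122, limma adjusted p = 0.00351). Its partner Lman1 went from 68.4 ± 5.98 to 81.3 ± 8.53 RPKM and did not pass (log2 fold change 0.24, limma adjusted p = 0.35).

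Tmed2 (ENSMUSG00000029390, GRCm38 chr5:124540695-124550506, plus strand), another p24 protein and the most abundant of the 7 members that passed without the block, had 143, 139, 135 and 147 RPKM in Ad-LacZ and 222, 244, 243 and 290 RPKM in libraries labelled Ad-Cre. Again no values overlapped, and the log2 fold change was 0.81 (SE 0.135, limma adjusted p = 0.00726). Surf4 (0.46) and Tmed3 (0.42) passed only with preparation as a block (limma adjusted p = 0.0201 and 0.0175). Tmed10, the p24 partner of TMED2, had a log2 fold change of 0.04 (95% interval -0.37 to 0.44).

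In the COPI coat, the ζ subunit genes had the largest log2 fold changes. Copz2 (ENSMUSG00000018672, GRCm38 chr11:96849870-96861203, plus strand) had 10.6, 11.2, 8.35 and 10.6 RPKM in Ad-LacZ and 20.5, 17.5, 15.9 and 19.5 RPKM in libraries labelled Ad-Cre. The groups did not overlap, and it was the only coat gene of COPI to pass, with a log2 fold change of 0.79 (SE 0.17, limma adjusted p = 0.0174). Copz1, the more abundant ζ gene, had a log2 fold change of 0.51 and passed only with the block (limma adjusted p = 0.00589).

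The γ subunit genes went opposite ways. Copg1 (ENSMUSG00000030058, GRCm38 chr6:87887814-87913595, plus strand) had 44.3, 46, 42.7 and 41.2 RPKM in Ad-LacZ and 70.1, 63.5, 49.2 and 57.7 RPKM in libraries labelled Ad-Cre, with a log2 fold change of 0.44 (SE 0.178, limma adjusted p = 0.119). Copg2 (ENSMUSG00000025607, GRCm38 chr6:30747554-30896794, minus strand) had 14, 11.7, 11 and 9.04 RPKM in Ad-LacZ and 9.55, 9.2, 8 and 7.36 RPKM in libraries labelled Ad-Cre, with a log2 fold change of -0.38 (SE 0.177, limma adjusted p = 0.172). Copg2 values overlapped between the groups but were lower in 4 of 4 preparations, and both genes passed with preparation as a block (limma adjusted p = 0.0174 and 0.0115). Of the Copg2 exonic length, 17.8% overlaps Mest on the other strand, and of Copg1 8.55% overlaps an antisense gene. Strand use in the counting is not given in the sources used here, so reads of overlapping genes cannot be told apart. The remaining COPI genes passed neither fit: Copa was at 0.24 on the log2 scale, above 0 in 4 of 4 preparations, and Cope at 0.19, Copb2 at 0.11, Copb1 at 0.00 and Arcn1 at -0.03.

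In the inner COPII coat, Sec24d alone passed without the block, going from 37.4 ± 1.97 to 48.6 ± 4.49 RPKM (SD, n = 4), with a log2 fold change of 0.36 (SE 0.108, limma adjusted p = 0.0496). SEC24 proteins are the cargo-binding subunits, and the others did not pass: Sec24c 0.22, Sec24a -0.01 and Sec24b -0.24. Sec24b had 13.3, 13.8, 15 and 18.2 RPKM in Ad-LacZ and 10.5, 12, 14.8 and 13.3 RPKM in libraries labelled Ad-Cre. The deposited values overlapped, but after scaling between libraries every value labelled Ad-Cre lay below every Ad-LacZ value. Sec23b (ENSMUSG00000027429, GRCm38 chr2:144556229-144590749, plus strand), whose product activates the SAR1 GTPase, had 40.1, 45.5, 35.6 and 36.2 RPKM in Ad-LacZ and 60.9, 56.7, 41.6 and 52.5 RPKM in libraries labelled Ad-Cre. The groups overlapped slightly because of M2, and its log2 fold change of 0.41 (SE 0.199) had a limma adjusted p of 0.19, or 0.0191 with the block. Sar1a (0.41) likewise passed only with the block (limma adjusted p = 0.0244). Preb, the exchange factor for SAR1, had a log2 fold change of 0.28, Sec23a 0.15 and Sar1b 0.01, and none of these passed either fit.

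No outer coat, exit site, ARF or SNARE gene passed without the block. Sec13 (ENSMUSG00000030298, GRCm38 chr6:113728062-113740743, minus strand), an outer cage subunit, had 25.4, 25.1, 28.7 and 29 RPKM in Ad-LacZ and 37.7, 32.5, 32.8 and 39.3 RPKM in libraries labelled Ad-Cre. No deposited values overlapped, but the scaled values did, and the log2 fold change was 0.37 (SE 0.122, limma adjusted p = 0.0647, or 0.0232 with the block). The exit site scaffold gene Sec16a (0.39) passed with the block (limma adjusted p = 0.0236), and Sec16b (-0.19) and Sec31a (0.03) passed in neither fit.

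Arfgap3 (ENSMUSG00000054277, GRCm38 chr15:83299739-83350247, minus strand), which switches ARF1 off on COPI vesicles, had 49.2, 49.2, 51.5 and 48.9 RPKM in Ad-LacZ and 68.7, 60, 58.5 and 69.5 RPKM in libraries labelled Ad-Cre, with a log2 fold change of 0.35 (SE 0.129, limma adjusted p = 0.0912, or 0.027 with the block). Arf1 (0.32) also passed with the block alone, at a limma adjusted p of 0.047, and Arf4 (0.17) in neither fit. The vesicle SNARE gene Bet1 (ENSMUSG00000032757, GRCm38 chr6:4076899-4086972, minus strand) had 16.4, 13.7, 16.7 and 14 RPKM in Ad-LacZ and 14, 18.6, 18.3 and 21.2 RPKM in libraries labelled Ad-Cre, with a log2 fold change of 0.22. Bet1 was lower in F1 and higher in the other 3 preparations on the RPKM scale. Sec22b, the other SNARE, had a log2 fold change of 0.19, and neither passed a fit.

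**Figure D2:**
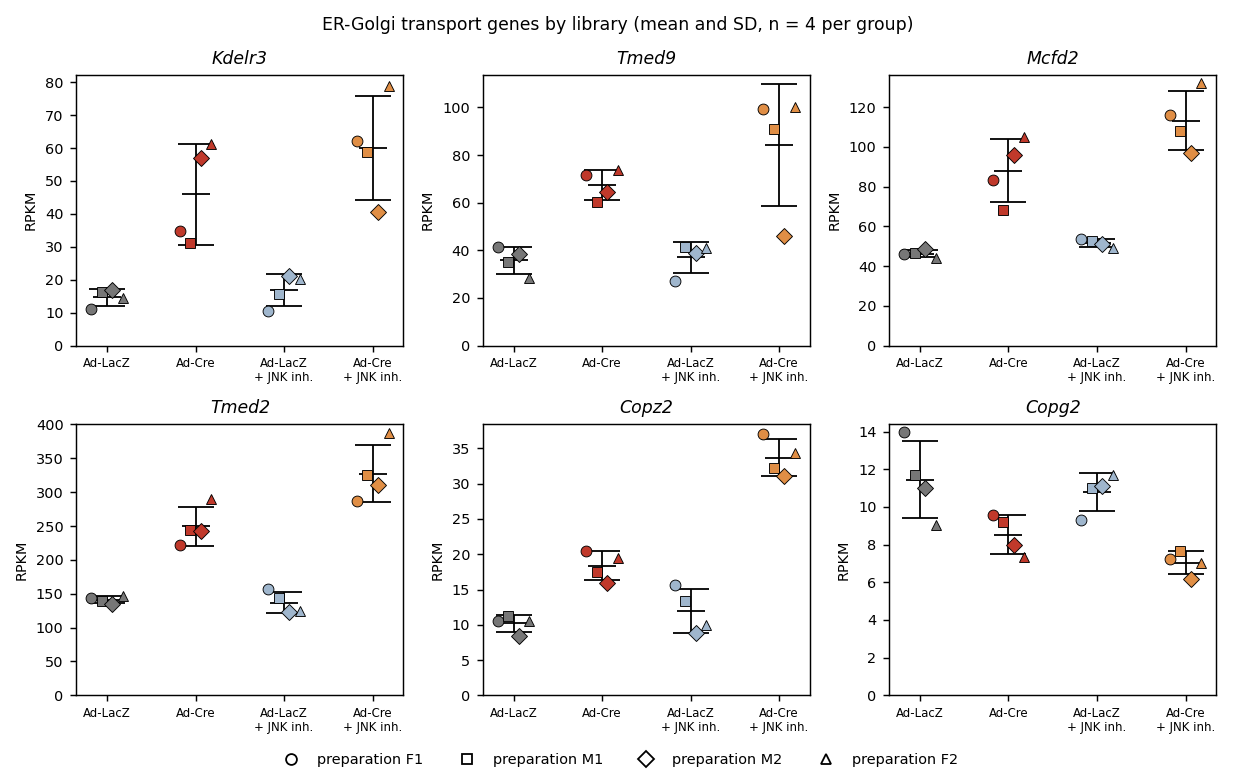
RPKM (y axis, from 0) of Kdelr3, Tmed9, Mcfd2, Tmed2, Copz2 and Copg2 in each library of the 4 groups (x axis), with the mean and SD of 4 libraries as bars and the preparation shown by the marker shape. The first 5 genes have every Ad-Cre value above every Ad-LacZ value, for example 31.1 to 61.2 against 11.1 to 17 RPKM for Kdelr3, and the Tmed9 value of 46.2 RPKM in Ad-Cre + JNK inhibitor M2 lies apart from the other 3.

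Taken gene by gene, the exact two-sided permutation test of 4 against 4 libraries reaches at best p = 0.0286. It reached that value, with no overlap between the groups, for 9 of 37 members, and 28 overlapped. Of the 9, 8 were higher in libraries labelled Ad-Cre (10.7% of all genes did not overlap in that direction), and 1, Sec24b, was lower (14.2% of all genes). The median difference within a preparation on the log2 scale was largest in F1 (0.39), then F2 (0.33), M1 (0.28) and M2 (0.18). In F1 and M1, stellate marker sums were 53.7 and 82.4 RPKM in Ad-LacZ and 50.3 and 79.4 RPKM in libraries labelled Ad-Cre. Macrophage marker sums (7 genes) were 66.2 and 74.9 RPKM in those Ad-LacZ libraries and 65.1 and 84.3 RPKM in those labelled Ad-Cre, and in M2 and F2 they went from 67.6 and 74.5 to 195 and 166 RPKM. Of 6 stellate markers tested none passed either fit, and of 6 macrophage markers C1qb was higher without the block and Adgre1, Cd68 and C1qb with it. The acinar marker Cela1 was higher with the block alone, and no α, δ, PP, duct or endothelial marker passed either fit. Of 6 β cell markers none passed without the block, and 4 (Mafa, Slc2a2, Nkx6-1 and Pdx1) were lower with it. With the inhibitor in both arms, Mafa and Slc2a2 were lower without the block too. The part of these marker levels in the members' differences was not tested.

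Leaving out 1 preparation at a time gave 4 members higher without F1 (2.34% of all genes), 2 without M1 (1.85%), 6 without M2 (4.2%) and 2 without F2 (1.01%). Kdelr3 and Mcfd2 passed in 4 of 4 such fits, Tmed2 and Tmed9 in 2, Copz2 in 1, and Kdelr2 and Sec24d in 0. Quantile normalization also ended the calls of Kdelr2 and Sec24d (limma adjusted p = 0.0565 and 0.0724), as did fitting all 16 libraries together (limma adjusted p = 0.059 and 0.0641). Kdelr2 also lost its call with no filter (limma adjusted p = 0.0588), and Sec24d with a pseudocount of 0.1 (limma adjusted p = 0.0509) or a filter of 0.1 RPKM (limma adjusted p = 0.0503).

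**Figure D3:**
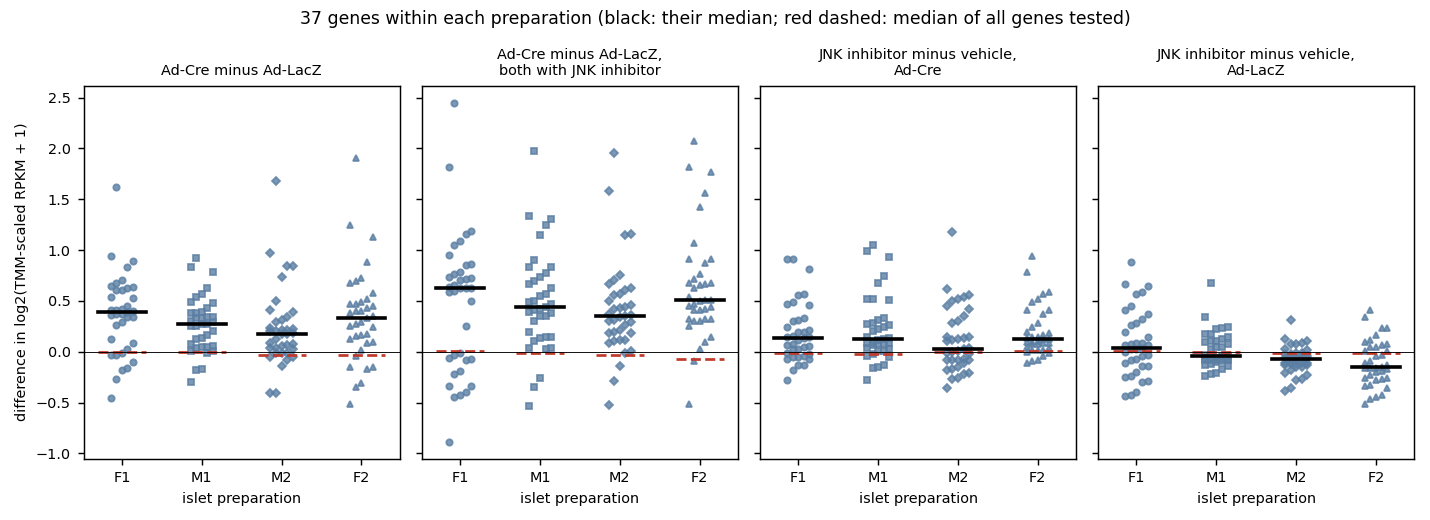
Difference in log2(scaled RPKM + 1) for each of the 37 genes within each preparation (x axis), in 4 comparisons. The black line is the median of the 37 genes and the red dashed line that of all genes tested; the black line lies at 0.39, 0.28, 0.18 and 0.33 for libraries labelled Ad-Cre minus Ad-LacZ and at 0.04, -0.04, -0.07 and -0.15 for the inhibitor in Ad-LacZ.

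Several of these proteins come as paralogs, so the balance within each family was compared as a ratio inside a library, which needs no scaling between libraries. For 13 pairs, the exact two-sided permutation test reached its smallest p of 0.0286 in 7, and the Benjamini-Hochberg adjusted p over the 13 pairs was then 0.0531, so no pair passed 0.05. Kdelr3 against Kdelr1 moved most. Its log2 ratio was -3.26, -2.94, -2.58 and -2.69 in Ad-LacZ and -2.07, -2.03, -0.96 and -1.06 in libraries labelled Ad-Cre, a mean difference of 1.34. Even so Kdelr3 stayed below Kdelr1 in each of the 8 libraries.

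The log2 ratio of Kdelr3 to Kdelr2 differed by 1.07 and that of Copz2 to Copz1 by 0.28, both without overlap. The γ-COP balance moved toward Copg1: the log2 ratio of Copg2 to Copg1 was -1.60, -1.89, -1.87 and -2.07 in Ad-LacZ and -2.75, -2.66, -2.48 and -2.81 in libraries labelled Ad-Cre, a difference of -0.82. Sar1b against Sar1a (-0.40) and Sec16b against Sec16a (-0.58) were also lower without overlap, and Sec24d against Sec24b was higher (0.60). The other 6 pairs overlapped, among them Sec23b against Sec23a (0.26, p = 0.571 by the exact permutation test) and Kdelr2 against Kdelr1 (0.27, p = 0.114 by the exact permutation test).

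**Figure D4:**
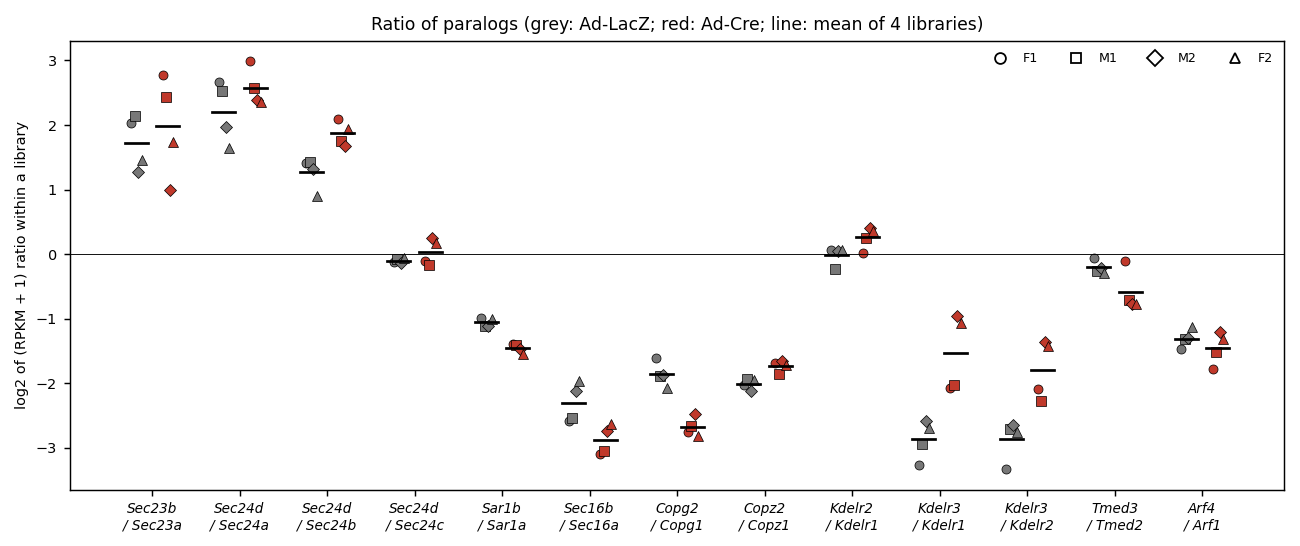
log2 of the ratio of (RPKM + 1) of a pair of paralogs within a library (y axis) for 13 pairs (x axis), with Ad-LacZ libraries in grey, libraries labelled Ad-Cre in red and the mean of 4 as a line. The grey and red points of 7 pairs do not overlap, including Kdelr3 to Kdelr1 (means -2.87 and -1.53) and Copg2 to Copg1 (means -1.86 and -2.68).

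With the JNK inhibitor in both arms, libraries labelled Ad-Cre again stood higher for most of the pathway. The log2 fold change was above 0 for 34 of 37 members, against 46.5% of 11598 genes, with a median of 0.41 for members and -0.03 for all genes. In limma, 8 members were higher at an adjusted p under 0.05 (10.1% of all genes): Kdelr3, Copz2, Tmed2, Tmed9, Mcfd2, Copg1, Sec13 and Sec23b. Copg2 was lower, where 10.5% of all genes were, and 28 did not pass. With preparation as a block 17 members were higher (12.7% of all genes), and at an unadjusted p under 0.05 with more than 1.5-fold change 11 were (9.75% of all genes). RPKM as deposited put the median of all genes at -0.14 and that of members at 0.28, with 30 members above 0, and after quantile normalization 29 were above 0 with a median of 0.18. Of all genes called, 49.1% were higher with scaling and 31.1% as deposited.

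Kdelr3 had 10.5, 15.7, 21.2 and 20.1 RPKM in Ad-LacZ + JNK inhibitor and 62.1, 58.9, 40.5 and 78.9 RPKM in libraries labelled Ad-Cre + JNK inhibitor, without overlap. Its log2 fold change was 1.91 (SE 0.213, limma adjusted p = 0.000793), a 3.75-fold difference. Copz2 had 15.6, 13.4, 8.79 and 10 RPKM against 37, 32.2, 31.1 and 34.4 RPKM, and the groups lay far apart. Its log2 fold change was 1.57 (SE 0.237, limma adjusted p = 0.00281).

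Tmed2 had 157, 143, 123 and 125 RPKM against 287, 325, 311 and 387 RPKM, with a log2 fold change of 1.38 (SE 0.194, limma adjusted p = 0.00217). Mcfd2 had 53.5, 52.6, 51.3 and 49.3 RPKM against 116, 108, 97 and 132 RPKM, with a log2 fold change of 1.24 (SE 0.16, limma adjusted p = 0.00157). For both genes every library labelled Ad-Cre + JNK inhibitor was above every control. Tmed9 had 27.3, 41.3, 38.7 and 41 RPKM against 99.2, 91, 46.2 and 100 RPKM, and its M2 value lay close to the controls (log2 fold change 1.25, SE 0.258, limma adjusted p = 0.0105).

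The other coat genes that passed differed by less than Copz2. Copg1 had 38.7, 43.6, 39 and 40.4 RPKM against 76.4, 75.1, 52.3 and 67.3 RPKM (log2 fold change 0.85, SE 0.183, limma adjusted p = 0.0122). Sec13 had 23.2, 26.5, 27.8 and 27.9 RPKM against 49.4, 44, 30.2 and 43.2 RPKM (0.75, SE 0.176, limma adjusted p = 0.0169). Neither gene's groups overlapped, and M2 was the lowest treated library of both. Sec23b had 34.1, 38.3, 29.2 and 30.3 RPKM against 60, 56, 37.9 and 52 RPKM (0.74, SE 0.216, limma adjusted p = 0.0394, or 0.0678 with no filter). Copg2 had 9.33, 11, 11.1 and 11.7 RPKM against 7.23, 7.66, 6.2 and 7.03 RPKM, and it fell by 0.43 on the log2 scale (SE 0.118, limma adjusted p = 0.0316) with no overlap.

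The M2 library labelled Ad-Cre + JNK inhibitor was low for many members, with Sar1a at 72.4 RPKM against 113 to 122 RPKM and Surf4 at 239 RPKM against 410 to 509 RPKM in the other 3. Without that library 24 members were higher at the adjusted p in limma, where 8 were with it, and the members' median was 0.54. The share of all genes called higher also grew, from 10.1% to 17.6%. In this comparison Kdelr3, Mcfd2, Tmed2 and Copz2 passed in 4 of 4 fits that left out 1 preparation, Tmed9, Copg1, Sec13 and Sec23b in 1 of 4 each, and Copg2 in 0. Stellate marker sums in the inhibitor libraries were 76.1, 202, 905 and 564 RPKM in Ad-LacZ and 52.6, 56.6, 339 and 235 RPKM in Ad-Cre. In Ad-LacZ libraries without the inhibitor they were 53.7, 82.4, 273 and 150 RPKM. Of 7 stellate markers tested none passed without the block and 5 were lower with it. Of 2 duct markers tested, only Spp1 passed, lower in both fits. The part of stellate and duct markers in the members' differences was not tested.

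Several markers of other cell types were higher in the same comparison. Ppy, the PP cell hormone gene, was higher (0.92, limma adjusted p = 0.0263), and the α cell markers Ttr and Irx2, the δ cell marker Sst, the acinar marker Cela1 and the β cell gene Ins2 were higher with the block alone. Of 6 β cell markers, 4 (Mafa, Slc2a2, Nkx6-1 and Pdx1) were lower with the block. Summed RPKM of 2 δ cell markers was 2605, 2374, 2968 and 1236 in Ad-LacZ + JNK inhibitor and 3741, 2737, 6673 and 2388 in libraries labelled Ad-Cre + JNK inhibitor. For 5 α cell markers the sums were 21950, 12884, 13147 and 10981 against 23278, 13263, 27225 and 17466 RPKM. The M2 library labelled Ad-Cre + JNK inhibitor, low for many members, had the highest α and δ sums of its group. The part of these markers in the members' differences was not tested.

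The inhibitor itself was compared with vehicle among the libraries labelled Ad-Cre. This comparison alone does not separate an effect particular to Ad-Cre from one shared with Ad-LacZ. No gene of 11503 passed an adjusted p under 0.05 in limma, members included. At an unadjusted p under 0.05 with more than 1.2-fold change, 5 members were higher (5.38% of all genes): Copz2, Tmed3, Kdelr3, Tmed2 and Mcfd2. None was lower. With preparation as a block 5 members passed the adjusted p as higher (4.41% of all genes): Copz2, Tmed3, Tmed2, Mcfd2 and Copg1. The members' median was 0.11 with 30 of 37 above 0, but it was -0.04 with 15 above 0 for RPKM as deposited, where the median of all genes was -0.14, and -0.02 with 18 above 0 after quantile normalization. Markers of other cell types also passed as higher with the block and not without it: Ttr (1.67, limma adjusted p = 0.0111), Sst (1.07, limma adjusted p = 0.0393), the macrophage marker Lyz2 (1.45, limma adjusted p = 0.0193) and the endothelial marker Plvap (0.79, limma adjusted p = 0.0309). No marker was lower in either fit, and their part in the members' differences was not tested.

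Copz2 had 20.5, 17.5, 15.9 and 19.5 RPKM in libraries labelled Ad-Cre and 37, 32.2, 31.1 and 34.4 RPKM with the inhibitor. These groups stood far apart, with a log2 fold change of 0.99 (SE 0.159, limma adjusted p = 0.166, or 0.00908 with the block), higher in 4 of 4 preparations. Tmed2 went from 222, 244, 243 and 290 to 287, 325, 311 and 387 RPKM (0.54, limma adjusted p = 0.329, or 0.0209 with the block). Tmed3, a p24 protein, had 206, 149, 142 and 170 RPKM and 342, 291, 174 and 262 RPKM (0.80, limma adjusted p = 0.43, or 0.0181 with the block). Its groups overlapped through M2, while each preparation was higher with the inhibitor. Mcfd2 (0.52) had a limma adjusted p of 0.371, or 0.0309 with the block, and Copg1 (0.32) one of 0.776, or 0.0467 with the block. Kdelr3 (0.55) was higher in 3 of 4 preparations and lower in M2, with a limma adjusted p of 0.599, or 0.154 with the block. Without the M2 library of Ad-Cre + JNK inhibitor, 9 members met the unadjusted rule (10.1% of all genes) where 5 did with it.

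In the Ad-LacZ control the inhibitor left no member past a threshold. No member met the unadjusted rule as higher (2.87% of all genes) or as lower (1.9% of all genes), and in limma 17 genes were higher and 6 lower at an adjusted p under 0.05, none of them a member. The members' log2 fold changes ran from -0.24 for Sec23b to 0.37 for Tmed3, with a median of -0.05 and 13 of 37 above 0. Tmed3 had 138, 116, 116 and 120 RPKM in Ad-LacZ and 186, 185, 127 and 138 RPKM with the inhibitor, and Copz2 had 10.6, 11.2, 8.35 and 10.6 and then 15.6, 13.4, 8.79 and 10 RPKM. For Copz2 F1 and M1 were higher and F2 lower with the inhibitor. Markers of other cell types differed here too. The macrophage markers Cd68 and Lyz2 were higher without the block. With it, Cd68, the duct marker Spp1 and the stellate markers Col1a1 and Fn1 were higher. No marker was lower in either fit. Macrophage marker sums were 66.2 to 74.9 RPKM in Ad-LacZ and 130 to 304 RPKM with the inhibitor. The part of these markers in the members' values was not tested.

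Whether the virus and the inhibitor act together was tested as an interaction over all 16 libraries. No gene of 12274 passed an adjusted p under 0.05 in limma, with or without the block. At an unadjusted p under 0.05, 2 members had a positive interaction (1.93% of all genes), Copz2 and Tmed2. The Copz2 interaction was 0.80 on the log2 scale (95% interval 0.15 to 1.46, limma adjusted p = 1.00), and that of Tmed2 was 0.58 (95% interval 0.11 to 1.06, limma adjusted p = 1.00). After scaling between libraries, Sec23b and Copg1 were higher with the inhibitor in 4 of 4 preparations labelled Ad-Cre and in 0 of 4 in Ad-LacZ. As deposited, Sec23b in libraries labelled Ad-Cre was at 60.9, 56.7, 41.6 and 52.5 RPKM, and at 60, 56, 37.9 and 52 RPKM with inhibitor. On that scale Sec23b was thus lower in each of these preparations, while Copg1 was higher. Their interactions were 0.35 (95% interval -0.31 to 1.01) and 0.42 (-0.14 to 0.98) without the block, with a limma adjusted p of 1.00, or 0.281 and 0.237 with it. With the block 7 members were past the unadjusted threshold, all with a positive interaction (5.58% of all genes): Copz2, Tmed2, Sec23b, Copg1, Sec13, Mcfd2 and Tmed3. The comparisons share libraries, so their values are given side by side and were not counted as separate evidence.

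Other genes of the same route were counted from further lists. In libraries labelled Ad-Cre against Ad-LacZ, 2 of 17 relatives of the cargo receptors were higher (7.29% of all genes), Tmed6 (log2 fold change 1.03, limma adjusted p = 0.0116), a p24 family gene, and Yif1b (0.85, limma adjusted p = 0.0101). Tmed6 was at 32.3, 35.9, 34 and 35.6 RPKM in Ad-LacZ and 87.4, 70.3, 53.5 and 79.4 RPKM in libraries labelled Ad-Cre. Of 32 SNAREs and tethers 3 were higher and none lower: the SNAREs Ykt6 (0.79, limma adjusted p = 0.00664) and Stx5a (0.56, limma adjusted p = 0.0147) and the tether gene Zw10 (0.38, limma adjusted p = 0.0302). Against the 7.29% of all genes, 3 of 32 is a share close to the background. With the block 5 relatives were higher and 1, Ergic2, lower, and 6 SNAREs and tethers were higher and 2, Cog5 and Cog8, lower (15.7% and 18.7% of all genes). Ykt6 was at 48.5, 48.8, 57.4 and 47.8 RPKM in Ad-LacZ and 91.1, 84.2, 78.8 and 99.4 RPKM in libraries labelled Ad-Cre.

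Of 9 tested COPII helpers 1 was lower, also a share close to the background of 9.58%. It was Mia2 (-0.79, limma adjusted p = 0.00813), a cargo adaptor of exit sites, at 3.41, 3.86, 3.38 and 4.61 RPKM in Ad-LacZ and 1.8, 2.04, 1.69 and 1.61 RPKM in libraries labelled Ad-Cre. With the inhibitor in both arms 3 of 17 cargo receptor relatives and 5 of 32 SNAREs and tethers were higher (10.1% of all genes) and 1 of 9 COPII helpers was lower (10.5%), Mia2 again at -0.89 (limma adjusted p = 0.00522). None of 6 tested transcription factors known to act on such genes passed without the block in either comparison, including Xbp1 (-0.08, SE 0.188), Atf6 (-0.17) and Creb3 (0.38, limma adjusted p = 0.0593, or 0.019 with the block). A gene-level value shows neither splicing of Xbp1 nor the activity of these factors' proteins, so it does not say whether they were active. The inhibitor against vehicle gave no call in these lists without the block. With it, 3 of 17 cargo receptor relatives were higher among libraries labelled Ad-Cre (4.41% of all genes): Tmed6 (1.02, limma adjusted p = 0.00888), Bcap31 (0.44, limma adjusted p = 0.0257) and Ergic3 (0.46, limma adjusted p = 0.0318).

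The promoters of 4 genes that rose in both virus comparisons are printed to show the letters that unfolded protein response factors are known to read. RefSeq start sites (GRCm38.p6) were found for 33 of 37 members, and not for Arcn1, Lman1, Kdelr2 and Tmed2. The windows run from 250 bases before to 50 after the start site, and capitals mark CCACG, the ATF6-binding part of the ER stress response element (ERSE), and TGACGTG, the core of the unfolded protein response element (UPRE), on either strand.
Kdelr3, chr15:79516158-79516457, plus strand: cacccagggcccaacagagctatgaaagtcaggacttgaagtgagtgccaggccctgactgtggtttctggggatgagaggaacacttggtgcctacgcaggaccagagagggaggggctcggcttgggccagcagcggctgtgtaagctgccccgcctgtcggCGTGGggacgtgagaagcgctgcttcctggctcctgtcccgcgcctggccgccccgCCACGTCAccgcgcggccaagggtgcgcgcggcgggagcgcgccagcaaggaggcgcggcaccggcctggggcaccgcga
Tmed9, chr13:55592885-55593184, plus strand: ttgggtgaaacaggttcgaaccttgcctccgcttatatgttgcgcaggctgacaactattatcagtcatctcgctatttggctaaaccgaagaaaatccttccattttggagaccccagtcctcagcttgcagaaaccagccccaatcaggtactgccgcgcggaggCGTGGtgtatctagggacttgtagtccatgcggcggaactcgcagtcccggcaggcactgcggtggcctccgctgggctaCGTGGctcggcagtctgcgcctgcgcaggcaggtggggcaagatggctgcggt
Mcfd2, chr17:87265898-87266197, minus strand: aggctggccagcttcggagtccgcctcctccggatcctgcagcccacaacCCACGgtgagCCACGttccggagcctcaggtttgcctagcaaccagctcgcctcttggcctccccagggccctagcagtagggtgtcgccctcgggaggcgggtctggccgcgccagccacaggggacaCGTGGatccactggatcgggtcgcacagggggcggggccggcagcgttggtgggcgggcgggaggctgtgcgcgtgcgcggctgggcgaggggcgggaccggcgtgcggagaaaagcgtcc
Copz2, chr11:96849626-96849925, plus strand: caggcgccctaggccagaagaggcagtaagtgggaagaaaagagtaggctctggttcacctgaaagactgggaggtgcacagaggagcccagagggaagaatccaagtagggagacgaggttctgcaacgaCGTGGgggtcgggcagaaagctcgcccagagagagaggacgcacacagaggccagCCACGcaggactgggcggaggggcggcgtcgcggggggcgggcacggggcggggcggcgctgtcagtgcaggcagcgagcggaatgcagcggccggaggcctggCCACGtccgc
In Kdelr3 the UPRE core lies 29 to 23 bases before the start site and shares letters with a CCACG at 30 to 26 bases before it, read on the other strand. Tmed9, Mcfd2 and Copz2 hold CCACG matches and no UPRE core. The Tmed9 window lies inside the gene span given above and not at its upstream end. Over the 33 members, 25 hold at least 1 CCACG (75.8%), against 35.5% of 27025 genes with a window of the same length. The UPRE core is in 7 (Arf1, Copb1, Copb2, Kdelr3, Sec16b, Sec23a and Sec24d; 21.2%), against 2.22% of genes. The full ERSE, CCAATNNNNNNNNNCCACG, and ERSE-II, ATTGGNCCACG, are in 0 of 33 members and in 0.137% and 0.0444% of genes. These shares were not matched for base composition, no test was run on them, and a match is not evidence of binding. Of the 7 genes with a UPRE core, Kdelr3 and Sec24d passed as higher in libraries labelled Ad-Cre without the block. Arf1 (0.32) passed only with the block, and the log2 fold changes of Copb1 (0.00), Copb2 (0.11), Sec16b (-0.19) and Sec23a (0.15) passed neither fit.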

How the data were processed

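Values were the authors' RPKM, deposited per gene and library after alignment of paired-end poly(A) reads to GRCm38 (build per the submitters' processing notes). The methods cite STAR for the alignment; its version, the gene lengths and the step from counts to RPKM are not given in the sources used here. The 3 other columns of the deposited table match no sample and were not used. A gene entered a fit when 4 or more of its libraries exceeded 1 RPKM. RPKM was scaled between libraries by trimmed means of M-values (TMM, 30% of ratios and 5% of levels trimmed), taken as log2(RPKM + 1) and fitted with limma 3.58.1 in R 4.3.3 (empirical Bayes with trend, Benjamini-Hochberg over all genes), each comparison on its 8 libraries and the interaction on all 16. A log2 fold change on this scale understates the change of low genes. The study's thresholds, p under 0.05 with a fold above 1.5 (virus) or 1.2 (inhibitor), were run as a second call rule, with p taken as unadjusted since the methods name no adjustment. Exact permutation tests used Python 3.11.15 and numpy 2.4.6. Scripts were tested on simulated data.

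Preparations pair the libraries, since the same 4 preparations gave each group: deviations from the group means correlated at 0.486 to 0.721 between Ad-LacZ and Ad-Cre libraries of 1 preparation and at -0.199 on average otherwise, and at 0.131 to 0.826 in the other comparisons. Depth was recovered from the RPKM steps and exon lengths.

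One further list of related genes is not reported here. The members and all lists were chosen with earlier results of these data known. Values by library are given for members with an adjusted p under 0.05 and a fold above 1.5 in Ad-Cre against Ad-LacZ, for those passing in an inhibitor comparison, and for the largest difference in each remaining role; Sec24b, Tmed3, Tmed6, Ykt6 and Mia2 were added after their values were seen. Fits were repeated with RPKM as deposited, quantile normalization, a 0.1 pseudocount, a 0.1 RPKM filter or none, no trend, all 16 libraries together, the block, and preparations left out.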

Additional observations from a re-analysis of the deposited data

Results flagged for a closer look

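Among 52 groups of 4 libraries of the members given by library, 3 held a library whose gap to the nearest other value, as a share of the group's range, was above the 95% critical value of Dixon's test for 4 samples. Chance alone gives about 1 such group in 20. Sec24d in Ad-LacZ + JNK inhibitor F1 was at 28.1 RPKM, with a gap share of 0.924. Arfgap3 in Ad-LacZ M2 was at 51.5 RPKM, with a gap share of 0.871 in a group that otherwise ran from 48.9 to 49.2 RPKM. Tmed9 in Ad-Cre + JNK inhibitor M2 was at 46.2 RPKM, with a gap share of 0.831.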

How the results depend on the processing

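Of the counts, medians and paired ratios that answer a comparison, 281 values under an alternative stayed on the same side or within 1.5 times of the value given, 55 moved and 3 reversed. In this section, counts without a share of all genes beside them were not set against one. Such counts do not show whether members moved more than all genes did. In Ad-Cre against Ad-LacZ the members higher at the adjusted p were 11 with RPKM as deposited, where 972 of all genes were, against 845 with scaling. When 1 preparation was left out 2 to 6 members were higher (1.01% to 4.2% of all genes). The members passing the permutation test alone were 15 with RPKM as deposited. In the inhibitor against vehicle, Ad-Cre, the median reversed to -0.0394 with RPKM as deposited and -0.0167 after quantile normalization, and the members at p and fold were 2 after quantile normalization; when 1 preparation was left out these were 2 to 8 and the median 0.0924 to 0.122. In Ad-LacZ, 1 member met p and fold with RPKM as deposited. In Ad-Cre against Ad-LacZ, both with inhibitor, the median was 0.276 with RPKM as deposited and 0.178 after quantile normalization. Members at p and fold were 7 after quantile normalization, and members higher at the adjusted p were 15 with all 16 libraries in 1 fit. When 1 preparation was left out 4 to 17 members were higher (1.51% to 15.3% of all genes), with 0 lower and a median of 0.391 to 0.505. The 17 were found without M2, where 15.3% of all genes were higher. For the interaction the median was 0.0283 with RPKM as deposited, 0.0713 after quantile normalization and 0.142 to 0.253 when 1 preparation was left out; members at an unadjusted p were 1 after quantile normalization and 0 to 5 when 1 preparation was left out.

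With preparation as a replicate block (a paired fit), members higher at the adjusted p were 17 and lower 1 in Ad-Cre against Ad-LacZ (15.7% and 18.7% of all genes). Higher were 5 in the inhibitor against vehicle, Ad-Cre (4.41%), and 17 in Ad-Cre against Ad-LacZ with inhibitor (12.7%). Members at p and fold were 10 in the inhibitor against vehicle, Ad-Cre, and 1 in Ad-LacZ. In the interaction 7 had an unadjusted p under 0.05, all positive (5.58% of all genes). The block changed no other count over the 37 members by over 1.5 times; its counts for the further lists stand beside them.

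The remaining fits were chosen after seeing the data. With preparations F1 and M1 only, medians were 0.338 (Ad-Cre against Ad-LacZ), 0.0195 (inhibitor in Ad-LacZ, reversed) and 0.571 (Ad-Cre against Ad-LacZ with inhibitor); members at p and fold were 8 (inhibitor in Ad-Cre), 4 (inhibitor in Ad-LacZ) and 18 higher and 1 lower (virus with inhibitor), 22 were higher at the adjusted p there, and 6 had an unadjusted p in the interaction. Without the Ad-Cre + JNK inhibitor library of M2, the median was 0.228 (inhibitor in Ad-Cre), 0.535 (virus with inhibitor) and 0.297 (interaction). Members at p and fold were then 9 and 18 (10.1% and 12.9% of all genes), and 24 were higher at the adjusted p with inhibitor (17.6%). The interaction count without that library is left out for the same reason. Without the Ad-LacZ + JNK inhibitor library of F1, the median was 0.537 (virus with inhibitor) and 0.284 (interaction), and 0 members were lower at the adjusted p. The causes were not tested.

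Sample size is 4 preparations, RPKM keeps no counts, and Copg2, with the fewest reads, had at least 278 in every library.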
